A study of Homo sapiens with 18 samples.

Results

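The genes described here are 51 interferon-stimulated and nucleic-acid-sensing genes, listed by name together with IDO1, and found among the 20329 genes counted in the files by matching Ensembl identifiers to symbols. All 51 were matched. They were followed over 18 RNA-seq samples of HAP1, a human line with a nearly haploid genome that derives from the chronic myeloid leukaemia line KBM-7 and carries mutant p53. The 6 groups held 3 samples each. Set A held wild-type control cells (control A), ΔWAPL cells of clone 3.3, ΔSCC4 cells and ΔWAPL/ΔSCC4 cells, and set B held separate wild-type controls (control B) and ΔWAPL cells of clone 1.14. ΔWAPL clones carried a Blasticidin cassette at WAPL and ΔSCC4 cells a Puromycin cassette at SCC4, each placed with CRISPR. ΔWAPL/ΔSCC4 cells were made from clone 3.3 by knocking out SCC4, and the labels name no interferon treatment. Each knockout genotype was represented by 1 clone, except WAPL loss with 2 clones, and each of these was measured in 1 set. The labels give the set of the controls only, and knockouts were placed beside them by the sequencing run and lane they shared. Clone and set therefore cannot be told apart.

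Cells carry sensors for misplaced nucleic acid. cGAS binds DNA in the cytosol and signals through STING, IFIH1 binds long double-stranded RNA, and both routes end in the release of type I interferons. Interferon bound to its receptor activates JAK kinases, and a complex that holds STAT2 and IRF9 then binds the interferon-stimulated response element (ISRE) in promoters. Interferon gamma acts through another element, the gamma-activated site (GAS). The target genes encode proteins that bind viral RNA, block virus entry or release, or load peptides on class I molecules, and IDO1, which opens the breakdown of tryptophan to kynurenine. WAPL releases the ring complex cohesin from DNA, while SCC4, encoded by MAU2, loads it together with SCC2. The comparisons below ask how the RNA of these genes differed when release, loading or both were lost.

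Between 10007646 and 20711127 reads per sample fell on genes. MAU2 had 5 to 17 reads in ΔSCC4 and ΔWAPL/ΔSCC4 samples and 736 to 1232 reads in all others. WAPL RNA fell in clone 3.3 (log2 fold change -1.20, SE 0.17, edgeR adjusted p = 0.000209), in clone 1.14 (log2 fold change -1.55, SE 0.10, edgeR adjusted p = 7.44e-05) and in ΔWAPL/ΔSCC4 cells against control A (log2 fold change -1.13, SE 0.16, edgeR adjusted p = 0.00134). The blood-cell markers that the origin of HAP1 would call for were nearly absent: 12 of 13 had too few reads for a test, their summed level stayed between 1.21 and 2.85 CPM, and CD3E had no read, while PTPRC had 6 reads over the 18 samples. Markers of other lineages differed between groups. Of 5 epithelial markers 3 were tested, and their sum ran from 57.9 to 81.9 CPM in control A, 60.0 to 66.0 in clone 3.3, 50.3 to 62.7 in ΔSCC4, 107.5 to 130.5 in ΔWAPL/ΔSCC4, 56.8 to 72.3 in control B and 41.7 to 47.6 in clone 1.14. Of 6 fibroblast markers only COL1A1 was tested and LUM had no read, with sums of 11.3 to 13.9 CPM in control A and ΔSCC4 samples, 16.1 to 22.2 in both ΔWAPL clones and control B and 28.1 to 32.2 in ΔWAPL/ΔSCC4. Of the 3 epithelial markers tested, 2 were called lower in each ΔWAPL clone and 1 in ΔSCC4. Of all genes, 3.9% were lower in clone 3.3, 11.4% in clone 1.14 and 4.03% in ΔSCC4. In ΔWAPL/ΔSCC4, 1 of the 3 was called higher and 0 lower, where 4.65% of all genes were higher and 3.3% lower. The median log2 fold change of the 3 markers there was 0.24. KRT8 was lower in clone 3.3, clone 1.14 and ΔSCC4 (-1.15, -2.14 and -1.61 on the log2 scale) and higher in ΔWAPL/ΔSCC4 (2.57) by edgeR. The part of these markers in the results below was not tested.

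Many promoters of these genes hold the letters of the ISRE core. In RefSeq windows of the 250 bases before each transcription start (GRCh38.p14), the ISRE core GAAANNGAAA, or its reverse complement TTTCNNTTTC, was found for 24 of the 39 members that had a window (61.5%), against 3.71% of 27305 genes and 3.02% of 35116 windows. The GAS core TTCNNNGAA, which reads the same on both strands, was found for 13 of 39 members (33.3%), against 8.09% of genes and 6.57% of windows. A match is a description of the sequence and not of binding. The 150 bases before the start are shown for 6 members whose RNA differed between the groups, each 5′ to 3′ on the strand of the gene, with the ISRE core in capitals in the first 5 and the GAS core in the last. IFIT1, DDX60 and OAS3 each held 2 ISRE cores in this stretch. PSMB8 held no ISRE core in either of its windows, and the one with a GAS core is shown.
IFIT1 (chr10:89392473-89392622, plus strand): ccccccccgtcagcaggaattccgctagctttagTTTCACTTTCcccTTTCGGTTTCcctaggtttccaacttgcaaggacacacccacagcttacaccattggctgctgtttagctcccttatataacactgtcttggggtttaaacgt
DDX60 (chr4:168318753-168318902, minus strand): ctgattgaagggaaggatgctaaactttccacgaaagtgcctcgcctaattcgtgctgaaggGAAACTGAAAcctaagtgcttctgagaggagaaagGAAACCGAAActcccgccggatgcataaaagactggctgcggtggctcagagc
SAMD9 (chr7:93117980-93118129, minus strand): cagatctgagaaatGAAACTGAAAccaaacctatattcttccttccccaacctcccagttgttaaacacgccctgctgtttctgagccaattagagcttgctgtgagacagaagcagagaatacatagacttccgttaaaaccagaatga
OAS3 (chr12:112938324-112938473, plus strand): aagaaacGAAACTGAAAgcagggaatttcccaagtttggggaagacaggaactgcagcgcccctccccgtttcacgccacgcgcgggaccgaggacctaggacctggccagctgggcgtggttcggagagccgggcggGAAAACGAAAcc
IFITM1 (chr11:313890-314039, plus strand): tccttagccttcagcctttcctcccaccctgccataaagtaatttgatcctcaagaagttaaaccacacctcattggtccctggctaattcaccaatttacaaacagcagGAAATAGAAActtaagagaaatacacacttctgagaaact
PSMB8 (chr6:32844048-32844197, minus strand): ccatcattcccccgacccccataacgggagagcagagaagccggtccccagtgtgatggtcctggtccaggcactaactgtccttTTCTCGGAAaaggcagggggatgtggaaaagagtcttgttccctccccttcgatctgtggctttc

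Of the 51 members, 40 had enough reads for a test in at least 1 comparison, and 33 in all 9 comparisons. The other 11 (IRF9, IFI44, IFI44L, IFITM3, MX2, OASL, GBP1, GBP2, SAMD9L, XAF1 and EPSTI1) were tested in none. MX2 and IFI44L had no read in any sample, which allows up to 3 reads, or 0.150 to 0.305 CPM depending on the library, and the remaining 9 had 2 to 52 reads over all 18 samples. CPM is the read count scaled to library size, with TMM factors over the 18 samples. Per kilobase of annotated exon, averaged over the samples, BST2 (137 CPM per kb), B2M (134), HLA-B (59.9) and HLA-C (26.6) were the highest. TAP1 had 12.9 CPM per kb, PSMB8 5.35, CGAS 3.97 and IDO1 1.40, while OAS2, SAMD9 and STING1 lay between 0.179 and 0.249 CPM per kb. The average of IDO1 includes the ΔSCC4 samples at 20.1 to 22.5 CPM, where all other samples had 0.665 to 2.96 CPM. None of the 10 interferon genes listed (IFNA1, IFNA2, IFNB1, IFNG, IFNE, IFNK, IFNW1, IFNL1, IFNL2 and IFNL3) had a read in any of the 18 samples.

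In every knockout some members were higher and others lower than in the controls. In clone 3.3 against control A, 8 of 37 members tested differed, 4 higher and 4 lower, where 4.17% of all genes tested were higher and 3.9% lower. Clone 1.14 against control B gave 19 of 39, with 7 higher and 12 lower, where 8.7% and 11.4% of all genes were. In ΔSCC4 cells 1 of 37 members was higher and 4 were lower than in control A, beside 5.45% and 4.03% of all genes. ΔWAPL/ΔSCC4 cells had 6 of 40 members higher and 4 lower than control A (4.65% and 3.3% of all genes). Set against the parental clone 3.3, 9 of 40 were higher and 5 lower (6.05% and 4.55%). The median log2 fold change of the members tested was 4.07e-05 in clone 3.3, -0.00477 in clone 1.14, 0.0597 in ΔSCC4, 0.20 in ΔWAPL/ΔSCC4 against control A and 0.15 against clone 3.3. Over all genes the medians lay between -0.0111 and 0.00150. Differences were called with edgeR's quasi-likelihood test at a Benjamini-Hochberg adjusted p under 0.05 over all genes tested, and the 3 samples of a group are not stated to be separate cultures, so that p-values measure only the spread between these samples. The same control A samples served clone 3.3, ΔSCC4 and ΔWAPL/ΔSCC4. Several counts changed on leaving out 1 library, and so did the share of all genes called. For clone 3.3, 5 members passed without control A replicate 2 or without clone 3.3 replicate 2. Of all genes tested, 5.69% and 5.44% were called there, in place of 8.07%. For clone 1.14, 11, 12 and 9 passed without its replicate 1, 2 and 3, where 11.1%, 13.4% and 11.5% of all genes were called in place of 20.1%. For ΔSCC4, 9 passed without control A replicate 1, where 18.3% of all genes tested were called in place of 9.49%. For ΔWAPL/ΔSCC4, 6 passed against control A without control A replicate 2, and against clone 3.3, 7 without clone 3.3 replicate 2 or ΔWAPL/ΔSCC4 replicate 1 and 8 without ΔWAPL/ΔSCC4 replicate 3. Of all genes, 4.99% were called in that fit against control A, in place of 7.95%. Against clone 3.3 the shares were 6.79%, 7.28% and 7.28%, in place of 10.6%. The labels number the replicates and state no pairing, but same-numbered ΔSCC4 and control A samples deviated together (correlations of 0.8208, 0.2061 and 0.7449). With control A, the numbers gave -0.6208, -0.0181 and -0.6275 for clone 3.3 and 0.3593, 0.2728 and -0.6884 for ΔWAPL/ΔSCC4. With control B, they gave 0.0991, 0.456 and 0.298 for clone 1.14. With the number as a block, 15 of 37 members passed in ΔSCC4, 8 higher and 7 lower, where 22.3% of all genes were higher and 23.7% lower.

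**Figure D1:**
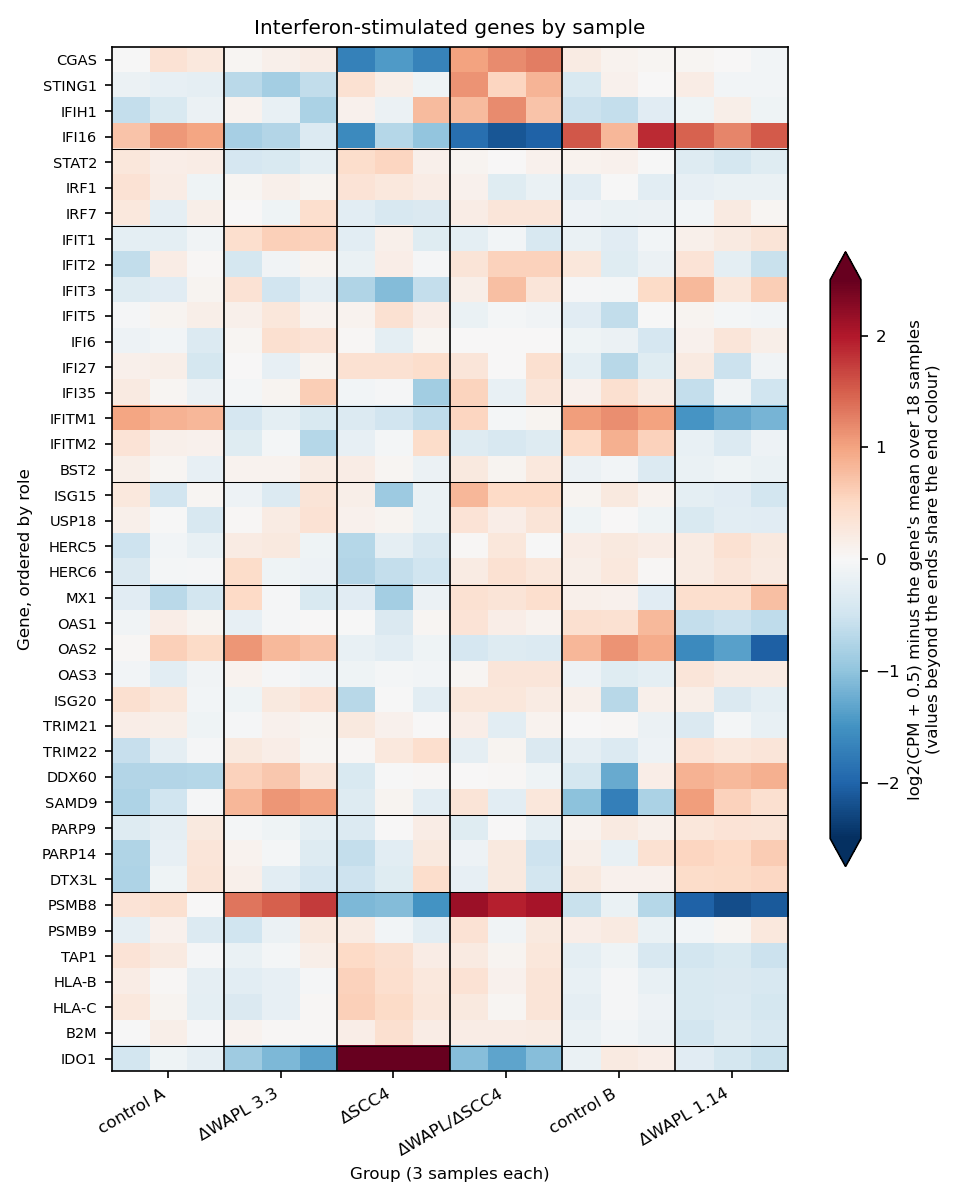
Level of the 40 members tested in at least 1 comparison, in each of 18 samples (columns, 3 per group), as log2(CPM + 0.5) minus the mean of the gene, with genes in rows ordered by role. IDO1 in ΔSCC4 and PSMB8 and IFI16 across groups carry the deepest colours, while most rows stay pale.

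**Figure D2:**
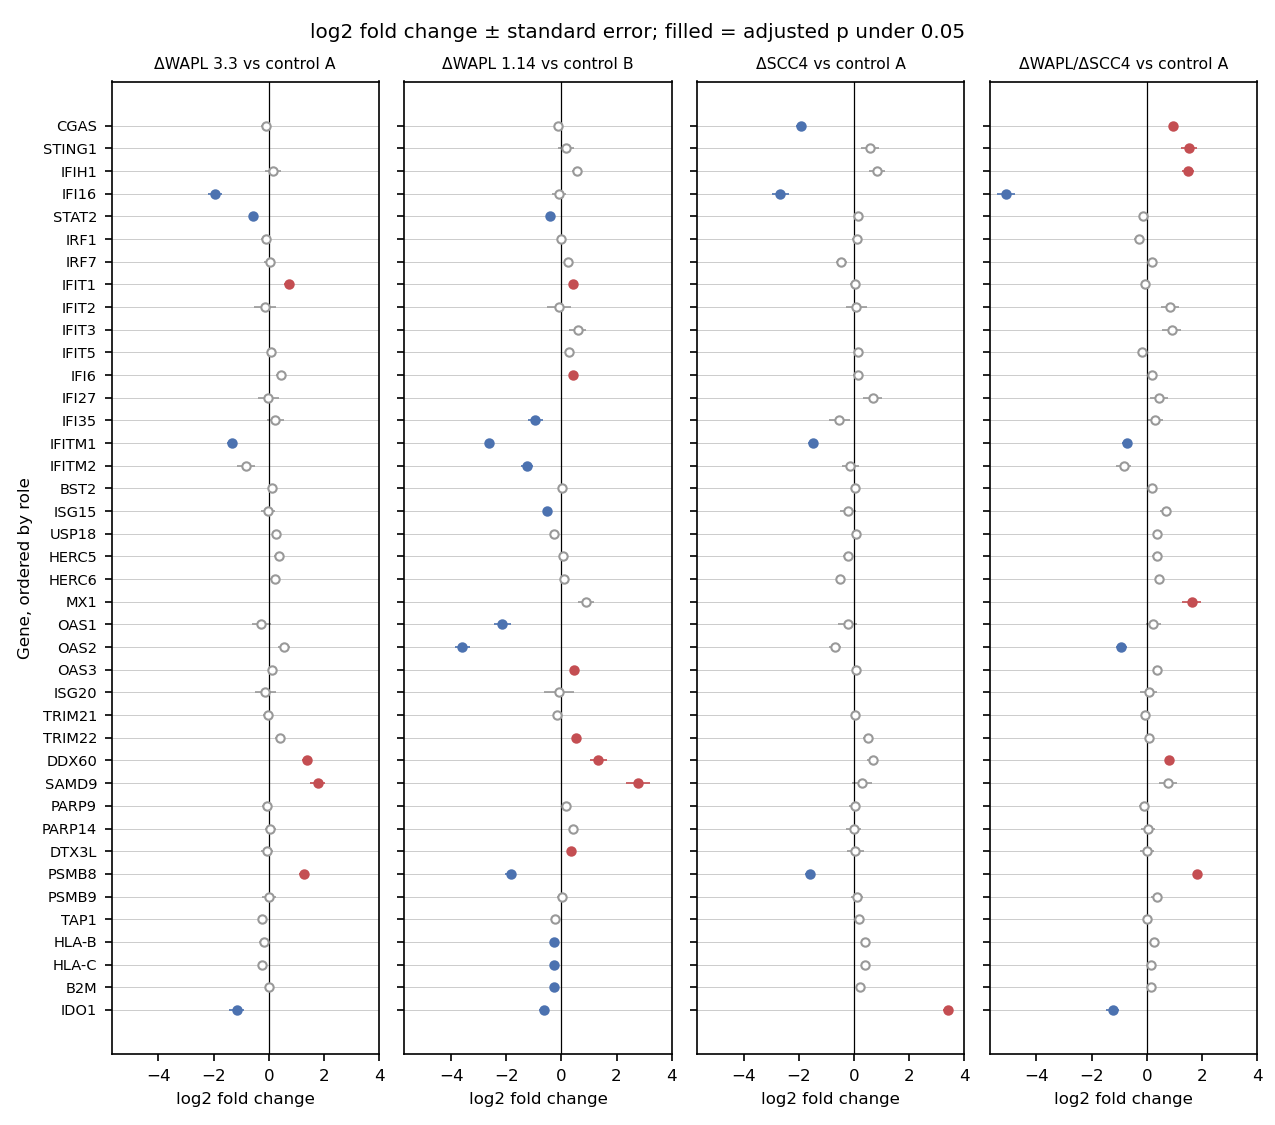
log2 fold change (points) with its standard error (bars) of each member tested in the comparison, for the 4 comparisons with a control. Filled points passed the threshold, red higher and blue lower, and a gene without a point had too few reads. IFI16 lies lowest, at -5.11 in ΔWAPL/ΔSCC4, and IDO1 highest, at 3.42 in ΔSCC4.

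IDO1 (ENSG00000131203), the enzyme that turns tryptophan into N-formylkynurenine, rose in ΔSCC4 cells and fell in the other 3 knockouts. IDO1 stood at 1.63, 2.22 and 2.03 CPM in control A, 1.096, 0.849 and 0.665 in clone 3.3, 20.1, 22.5 and 21.2 in ΔSCC4 and 0.9104, 0.676 and 0.905 in ΔWAPL/ΔSCC4. In set B IDO1 stood at 2.12, 2.96 and 2.81 CPM in control B and 1.91, 1.66 and 1.51 in clone 1.14. The 3 ΔSCC4 samples stood apart from every other sample, and both clones and ΔWAPL/ΔSCC4 lay below all of their controls. The group means were 1.958 ± 0.302 CPM in control A, 21.3 ± 1.21 in ΔSCC4 and 0.831 ± 0.134 in ΔWAPL/ΔSCC4 (SD, n = 3). The rise in ΔSCC4 was 10.7-fold (log2 fold change 3.42, SE 0.18, edgeR adjusted p = 1.51e-06). The falls were smaller in clone 3.3 (log2 fold change -1.16, SE 0.27, edgeR adjusted p = 0.0132), clone 1.14 (log2 fold change -0.64, SE 0.18, edgeR adjusted p = 0.0479) and ΔWAPL/ΔSCC4 (log2 fold change -1.23, SE 0.24, edgeR adjusted p = 0.00878). From high to low the means ran ΔSCC4, control B, control A, clone 1.14, clone 3.3 and ΔWAPL/ΔSCC4. ΔWAPL/ΔSCC4 and clone 3.3 overlapped (-0.0909, edgeR adjusted p = 0.902), as did control A and clone 1.14, and the controls did not differ beyond the test's threshold (0.41, edgeR adjusted p = 0.483). The fall in clone 3.3 was not called without control A replicate 2 or clone 3.3 replicate 2 or 3 (adjusted p = 0.0528 to 0.0761) or in DESeq2 (adjusted p = 0.0807), that in clone 1.14 not without control B replicate 2 or 3 or clone 1.14 replicate 1, 2 or 3 (adjusted p = 0.0745 to 0.154) or in DESeq2 (adjusted p = 0.195), and that in ΔWAPL/ΔSCC4 not without control A replicate 2 (adjusted p = 0.0556). The fall in clone 1.14 was also not called with no filter (edgeR adjusted p = 0.0606) or with the replicate block (edgeR adjusted p = 0.07135).

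The direct comparison of ΔWAPL/ΔSCC4 with ΔSCC4 cells was added after the values of IDO1 had been seen. IDO1 was lower in the cells that lacked both proteins (log2 fold change -4.66, SE 0.19, edgeR adjusted p = 1.83e-11). The log2 fold change with SCC4 loss was 3.42 where WAPL was present and -0.0909 where it was absent. The difference between these effects, also tested after it had been seen, was -3.50 (SE 0.31, edgeR adjusted p = 2.33e-06). Between ΔWAPL/ΔSCC4 and ΔSCC4, 10 of 39 members were higher and 2 lower, where 13.7% and 13.6% of all genes were. The higher ones were CGAS (2.89), PSMB8 (3.42), IFIT3 (2.22), MX1 (1.35), STING1 (0.96), HERC6 (0.92), ISG15 (0.89), IFITM1 (0.75), IRF7 (0.66) and HERC5 (0.56 on the log2 scale), and TRIM22 (-0.41) was lower beside IDO1. Of these, 5 were not called on leaving out 1 library in edgeR: STING1 without ΔSCC4 replicate 2 or 3 or ΔWAPL/ΔSCC4 replicate 1 or 3 (adjusted p = 0.0543 to 0.126) or in DESeq2 (adjusted p = 0.104), IFITM1 without ΔSCC4 replicate 2 or ΔWAPL/ΔSCC4 replicate 1 (adjusted p = 0.0553 to 0.0769), ISG15 without ΔWAPL/ΔSCC4 replicate 1 (adjusted p = 0.0505), MX1 without ΔSCC4 replicate 2 or ΔWAPL/ΔSCC4 replicate 1 or 3 (adjusted p = 0.0561 to 0.0884) or in DESeq2 (adjusted p = 0.109) and TRIM22 without ΔSCC4 replicate 2 or 3 or ΔWAPL/ΔSCC4 replicate 1 or 3 (adjusted p = 0.0706 to 0.181). For the difference of effects, 4 of 40 were higher and 4 lower (5.85% and 5.48% of all genes).

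**Figure D3:**
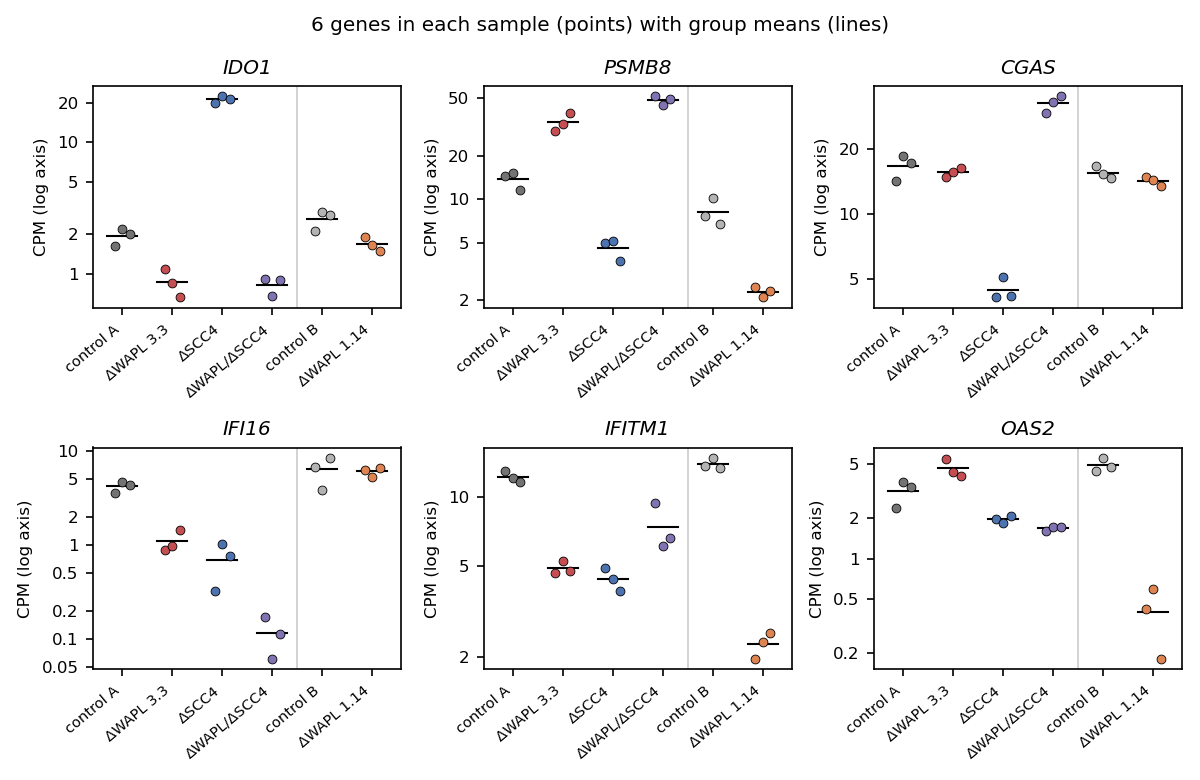
CPM on a log axis in each sample (points, coloured by group) with the group means (lines) for IDO1, PSMB8, CGAS, IFI16, IFITM1 and OAS2; the vertical line parts set A from set B. IDO1 is near 20 CPM in ΔSCC4 only, CGAS and PSMB8 are low in ΔSCC4 and high in ΔWAPL/ΔSCC4, and OAS2 is lowest in clone 1.14.

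Among 12 genes of the path from tryptophan to kynurenine and its use, 9 were tested. AHR, the transcription factor that kynurenine can bind, was higher in all 4 knockouts. AHR stood at 7.42, 9.62 and 10.1 CPM in control A, 32.5, 33.9 and 24.7 in clone 3.3, 13.1, 16.7 and 17.8 in ΔSCC4 and 21.7, 24.3 and 18.04 in ΔWAPL/ΔSCC4. In set B AHR stood at 13.7, 10.5 and 13.5 CPM in control B and 45.8, 40.01 and 45.7 in clone 1.14. Every knockout sample lay above all controls of its set. The rise was 1.73 (edgeR adjusted p = 9.27e-06) in clone 3.3, 1.80 (edgeR adjusted p = 6.88e-05) in clone 1.14, 0.80 (edgeR adjusted p = 0.0182) in ΔSCC4 and 1.24 (edgeR adjusted p = 0.0007199) in ΔWAPL/ΔSCC4, on the log2 scale. In ΔSCC4 it was not called without control A replicate 2 or ΔSCC4 replicate 2 (adjusted p = 0.0657 to 0.0747). TDO2, which catalyses the same step as IDO1, went the other way from it in the clones: from 0.651, 0.7399 and 0.596 CPM in control A to 2.29, 1.77 and 2.13 in clone 3.3 (1.62, edgeR adjusted p = 0.000945), and from 0.752, 0.403 and 0.4502 in control B to 2.33, 1.54 and 1.45 in clone 1.14 (1.74, edgeR adjusted p = 0.00954). In ΔWAPL/ΔSCC4 TDO2 was lower than in clone 3.3 (-1.65, edgeR adjusted p = 0.000608). WARS1, the tryptophan tRNA synthetase, and SLC7A5 and SLC3A2, which form an amino acid transporter, fell in clone 1.14 (-0.71, -0.64 and -0.45 on the log2 scale).

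All 4 sensors and adaptors were called in ΔWAPL/ΔSCC4 against control A, 3 of them higher and 1 lower, where 4.65% of all genes were higher and 3.3% lower. In clone 1.14, 0 of the 4 were called. In ΔSCC4 2 of 4 were lower, and in clone 3.3 1 of 3 tested was lower (4.03% and 3.9% of all genes). CGAS (ENSG00000164430, chr6:74123238-74162020 on GRCh37), the cytosolic DNA sensor, fell in ΔSCC4 and rose in ΔWAPL/ΔSCC4. CGAS stood at 14.3, 18.7 and 17.3 CPM in control A, 14.9, 15.7 and 16.4 in clone 3.3, 4.097, 5.09 and 4.15 in ΔSCC4 and 29.4, 33.4 and 35.4 in ΔWAPL/ΔSCC4. In set B CGAS stood at 16.7, 15.3 and 14.8 CPM in control B and 14.8, 14.4 and 13.6 in clone 1.14. The ΔSCC4 samples were the lowest of the series, and the ΔWAPL/ΔSCC4 samples the highest. Against control A the difference was -1.94 (log2 fold change, SE 0.17, edgeR adjusted p = 5.92e-05) in ΔSCC4, and 0.96 (log2 fold change, SE 0.14, edgeR adjusted p = 0.00127) in ΔWAPL/ΔSCC4. The clones stood at -0.12 (edgeR adjusted p = 0.805) in clone 3.3 and -0.13 (edgeR adjusted p = 0.282) in clone 1.14. ΔWAPL/ΔSCC4 lay above clone 3.3 (log2 fold change 1.07, SE 0.13, edgeR adjusted p = 2.43e-05), so that loss of SCC4 went with less CGAS RNA in the presence of WAPL and with more in its absence, and these effects differed by 3.01 (SE 0.20, edgeR adjusted p = 1.12e-07).

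STING1, the adaptor that cGAS signals to, had few reads. STING1 stood at 0.651, 0.617 and 0.596 CPM in control A, 0.299, 0.212 and 0.332 in clone 3.3, 1.17, 0.916 and 0.691 in ΔSCC4 and 2.28, 1.35 and 1.81 in ΔWAPL/ΔSCC4. In set B STING1 stood at 0.479, 0.874 and 0.788 CPM in control B and 0.954, 0.712 and 0.724 in clone 1.14. In ΔWAPL/ΔSCC4 all 3 samples exceeded every other sample. Their 94 reads against 14 in clone 3.3 gave a ratio of 6.42 (95% counting interval 3.64 to 12.2), and the test called the gene higher than in clone 3.3 (log2 fold change 2.65, SE 0.35, edgeR adjusted p = 6.81e-05) and than in control A (log2 fold change 1.54, SE 0.28, edgeR adjusted p = 0.00616). In clone 3.3 the gene was left out of the test against control A for low counts, with 3 to 6 reads per sample. The effects of SCC4 loss with and without WAPL differed by 2.09 (SE 0.48, edgeR adjusted p = 0.00925). Intervals here cover counting error only.

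IFIH1, the sensor of long double-stranded RNA, was also highest in ΔWAPL/ΔSCC4. IFIH1 stood at 1.37, 1.67 and 2.03 CPM in control A, 2.49, 1.98 and 1.13 in clone 3.3, 2.54, 2.04 and 4.36 in ΔSCC4 and 4.38, 5.90 and 4.07 in ΔWAPL/ΔSCC4. In set B IFIH1 stood at 1.44, 1.35 and 1.801 CPM in control B and 2.12, 2.61 and 2.11 in clone 1.14. The ΔWAPL/ΔSCC4 samples lay above every control A and clone 3.3 sample, and overlapped with ΔSCC4, where replicate 3 reached 4.36 CPM. Against control A the rise was 1.49 (log2 fold change, SE 0.22, edgeR adjusted p = 0.00151), and against clone 3.3 1.32 (log2 fold change, SE 0.24, edgeR adjusted p = 0.00159). In ΔSCC4 the difference to control A was 0.83 (edgeR adjusted p = 0.129), and passed with the replicate block (0.82, edgeR adjusted p = 0.00983).

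IFI16 (ENSG00000163565, chr1:158969758-159024945), a DNA-binding protein of the nucleus and cytosol, was lower in clone 3.3, ΔSCC4 and ΔWAPL/ΔSCC4 and was not called in clone 1.14. IFI16 stood at 3.58, 4.75 and 4.41 CPM in control A, 0.897, 0.9904 and 1.46 in clone 3.3, 0.325, 1.02 and 0.7603 in ΔSCC4 and 0.171, 0.0615 and 0.113 in ΔWAPL/ΔSCC4. In set B IFI16 stood at 6.77, 3.899 and 8.55 CPM in control B and 6.36, 5.28 and 6.699 in clone 1.14. None of the 9 knockout samples of set A reached a control, while control B and clone 1.14 overlapped. The fall was -1.957 (log2 fold change, SE 0.24, edgeR adjusted p = 6.41e-05) in clone 3.3, -2.68 (log2 fold change, SE 0.31, edgeR adjusted p = 0.000329) in ΔSCC4 and -5.11 (log2 fold change, SE 0.32, edgeR adjusted p = 4.27e-06) in ΔWAPL/ΔSCC4. The last group had 3, 1 and 2 reads, and the ratio of its summed reads to control A was 0.0273 (95% counting interval 0.00992 to 0.0605). It was also lower than clone 3.3 (log2 fold change -3.16, SE 0.47, edgeR adjusted p = 0.000212). In clone 1.14 the value was -0.0846 (edgeR adjusted p = 0.827), and the gap between the effects in the clones was -1.86 (edgeR adjusted p = 0.0189). That difference was not called without control A replicate 2 or clone 3.3 replicate 1 or 2 or clone 1.14 replicate 1 or 3 (adjusted p = 0.0505 to 0.0747).

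Around these sensors, 14 of 18 other genes of nucleic acid sensing and its brakes were tested. RIGI, MAVS, TBK1, IRF3, TREX1, ADAR and EIF2AK2 were called in none of the comparisons with a control without a replicate block. With the block, RIGI (-0.40, edgeR adjusted p = 0.00775), IRF3 (-0.20, edgeR adjusted p = 0.0326) and EIF2AK2 (-0.43, edgeR adjusted p = 0.000546) were lower in ΔSCC4. Clone 1.14 had lower DNASE2 (-0.41, edgeR adjusted p = 0.00746) and RNASEH2B (-0.20, edgeR adjusted p = 0.0382), where the last was not called without control B replicate 1 or clone 1.14 replicate 1, 2 or 3 (adjusted p = 0.0773 to 0.141) or in DESeq2 (adjusted p = 0.145). RNASEH2B was also not called with no filter, in one fit over all 18 samples or with the block (edgeR adjusted p = 0.0732, 0.174 and 0.0525). ΔWAPL/ΔSCC4 exceeded ΔSCC4 in 5 of the 14, RIGI (0.86), IRF3 (0.48), SAMHD1 (0.46), DNASE2 (0.40) and EIF2AK2 (0.63 on the log2 scale), where 13.7% of all genes tested were higher. The last 4 lost their call on leaving out 1 library: IRF3 without ΔSCC4 replicate 2 or ΔWAPL/ΔSCC4 replicate 1 (adjusted p = 0.0791 to 0.0887), SAMHD1 without ΔSCC4 replicate 1 or 2 or ΔWAPL/ΔSCC4 replicate 3 (adjusted p = 0.0546 to 0.145), DNASE2 without ΔSCC4 replicate 2 or 3 or ΔWAPL/ΔSCC4 replicate 1 or 3 (adjusted p = 0.0842 to 0.172) and EIF2AK2 without ΔSCC4 replicate 2 or ΔWAPL/ΔSCC4 replicate 1 (adjusted p = 0.0658 to 0.164) or in DESeq2 (adjusted p = 0.151). In one fit over all 18 samples EIF2AK2 lost its call too (edgeR adjusted p = 0.0573).

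The 6 receptor genes (IFNAR1, IFNAR2, IFNGR1, IFNGR2, IFNLR1 and IL10RB) were called in no comparison with a control, with log2 fold changes between -0.41 and 0.25, but in ΔSCC4 IFNAR1 (-0.22, edgeR adjusted p = 0.0311) and IFNLR1 (-0.36, edgeR adjusted p = 0.0149) were lower with the replicate block. The signalling genes JAK1, JAK2, TYK2, STAT3, SOCS1, SOCS3, PIAS1, PTPN2 and IRF2 were not called against a control either. With the block, JAK1 (0.28, edgeR adjusted p = 0.003398) and TYK2 (0.31, edgeR adjusted p = 0.00164) were higher and PIAS1 (-0.25, edgeR adjusted p = 0.0137) was lower in ΔSCC4, and in one fit over all 18 samples STAT3 was lower in clone 3.3 (-0.37, edgeR adjusted p = 0.00728). STAT3 was higher in ΔWAPL/ΔSCC4 than in clone 3.3 (0.42, edgeR adjusted p = 0.0174), though not without clone 3.3 replicate 2 or ΔWAPL/ΔSCC4 replicate 1 or 3 (adjusted p = 0.0774 to 0.0976).

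STAT2, a subunit of the complex that binds the ISRE, fell in both ΔWAPL clones. STAT2 stood at 50.7, 46.9 and 47.6 CPM in control A, 31.1, 31.9 and 34.96 in clone 3.3, 56.5, 60.7 and 45.96 in ΔSCC4 and 43.5, 42.2 and 45.2 in ΔWAPL/ΔSCC4. In set B STAT2 stood at 44.6, 45.3 and 41.2 CPM in control B and 33.5, 30.9 and 33.9 in clone 1.14. Samples of either clone lay below all their controls, and the ΔSCC4 samples overlapped with control A. The fall was -0.59 (log2 fold change, SE 0.14, edgeR adjusted p = 0.0167) in clone 3.3 and -0.42 (log2 fold change, SE 0.0715, edgeR adjusted p = 0.00651) in clone 1.14. ΔWAPL/ΔSCC4 exceeded clone 3.3 (log2 fold change 0.42, SE 0.12, edgeR adjusted p = 0.0297) and stood at -0.15 (edgeR adjusted p = 0.586) against control A. The call in clone 3.3 was lost without control A replicate 2 or clone 3.3 replicate 1 or 2 (adjusted p = 0.0691 to 0.112), and that of ΔWAPL/ΔSCC4 against clone 3.3 without clone 3.3 replicate 1 or 2 or ΔWAPL/ΔSCC4 replicate 1 or 3 (adjusted p = 0.0667 to 0.1395). The call of STAT2 in clone 3.3 was also lost with the replicate block (edgeR adjusted p = 0.137). The factors IRF1 and IRF7 were called in no comparison with a control, with log2 fold changes from -0.47 to 0.23, and IRF9 had 48 reads in all. With the replicate block, IRF7 was lower in ΔSCC4 (-0.49, edgeR adjusted p = 0.0224).

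Of 9 IFIT and IFI genes, 7 were tested in at least 1 comparison. IFIT1, which binds foreign RNA by its end, rose in both ΔWAPL clones. IFIT1 stood at 8.99, 9.06 and 10.2 CPM in control A, 14.7, 16.5 and 16.3 in clone 3.3, 8.84, 11.9 and 8.64 in ΔSCC4 and 8.99, 10.3 and 8.03 in ΔWAPL/ΔSCC4. In set B IFIT1 stood at 9.504, 8.81 and 10.2 CPM in control B and 11.8, 12.7 and 13.5 in clone 1.14. Each clone sample exceeded its controls, and ΔWAPL/ΔSCC4 overlapped with control A. The rise was 0.73 (log2 fold change, SE 0.16, edgeR adjusted p = 0.00717) in clone 3.3 and 0.41 (log2 fold change, SE 0.0919, edgeR adjusted p = 0.0209) in clone 1.14, and ΔWAPL/ΔSCC4 was lower than clone 3.3 (log2 fold change -0.79, SE 0.14, edgeR adjusted p = 0.00114). Without control A replicate 2 or clone 3.3 replicate 2 (adjusted p = 0.0553 to 0.0608) the call in clone 3.3 was lost, and so was that in clone 1.14 without control B replicate 1 or clone 1.14 replicate 2 or 3 (adjusted p = 0.0691 to 0.0881) or in DESeq2 (adjusted p = 0.0612). The call of IFIT1 in clone 3.3 was also lost with the replicate block (edgeR adjusted p = 0.0520).

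Its neighbours on chromosome 10, where IFIT2, IFIT3, IFIT1 and IFIT5 span 138 kb of GRCh37 from 91043451 to 91181362, did not share this pattern of calls. IFIT2 stood at 0.391, 1.05 and 0.894 CPM in control A, 0.498, 0.778 and 0.9304 in clone 3.3, 0.715, 1.02 and 0.829 in ΔSCC4 and 1.195, 1.54 and 1.53 in ΔWAPL/ΔSCC4. In set B IFIT2 stood at 1.16, 0.605 and 0.732 CPM in control B and 1.22, 0.653 and 0.422 in clone 1.14. IFIT2 was called only in ΔWAPL/ΔSCC4 against clone 3.3 (log2 fold change 0.98, SE 0.30, edgeR adjusted p = 0.0455), and that call was lost without clone 3.3 replicate 1 or 2 or ΔWAPL/ΔSCC4 replicate 1, 2 or 3 (adjusted p = 0.0541 to 0.184) or in DESeq2 (adjusted p = 0.207). It was also lost in one fit over all 18 samples (edgeR adjusted p = 0.0898). IFIT3 stood at 0.521, 0.555 and 0.834 CPM in control A, 1.15, 0.425 and 0.598 in clone 3.3, 0.2601, 0.102 and 0.346 in ΔSCC4 and 0.9104, 1.66 and 1.08 in ΔWAPL/ΔSCC4. In set B IFIT3 stood at 0.752, 0.7395 and 1.29 CPM in control B and 1.75, 1.07 and 1.45 in clone 1.14. IFIT3 was lowest in ΔSCC4, with 10 reads in all 3 samples against 62 in ΔWAPL/ΔSCC4, and was called between these groups (log2 fold change 2.22, SE 0.44, edgeR adjusted p = 0.00132). IFIT5 was called in no comparison, with log2 fold changes between -0.39 and 0.26. Among the IFI genes, IFI6, a protein of the endoplasmic reticulum, rose in clone 1.14. IFI6 stood at 7.03, 7.34 and 6.02 CPM in control A, 8.02, 10.3 and 9.902 in clone 3.3, 7.87, 6.52 and 8.09 in ΔSCC4 and 7.85, 7.81 and 7.86 in ΔWAPL/ΔSCC4. In set B IFI6 stood at 7.11, 6.99 and 5.68 CPM in control B and 8.43, 9.68 and 8.63 in clone 1.14. The clone 1.14 samples lay above control B, and the clone 3.3 samples above control A without passing the test (0.45, edgeR adjusted p = 0.179), which they passed in one fit over all 18 samples (edgeR adjusted p = 0.0215). In clone 1.14 the value was 0.43 (log2 fold change, SE 0.12, edgeR adjusted p = 0.0404), not called without control B replicate 1 or 3 or clone 1.14 replicate 1, 2 or 3 (adjusted p = 0.0538 to 0.101) or in DESeq2 (adjusted p = 0.103). IFI35 was lower there (-0.95, edgeR adjusted p = 0.0469), and that call was lost without control B replicate 1, 2 or 3 or clone 1.14 replicate 1 or 3 (adjusted p = 0.0503 to 0.157) or in DESeq2 (adjusted p = 0.181). It was also lost with no filter and in one fit over all 18 samples (edgeR adjusted p = 0.0593 and 0.0985). IFI27 was not called, with log2 fold changes from -0.57 to 0.67.

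IFITM1 (ENSG00000185885, chr11:310041-315272), a membrane protein that blocks the entry of viruses, was lower in all 4 knockouts. IFITM1 stood at 12.96, 12.02 and 11.6 CPM in control A, 4.64, 5.24 and 4.72 in clone 3.3, 4.88, 4.38 and 3.87 in ΔSCC4 and 9.39, 6.08 and 6.62 in ΔWAPL/ΔSCC4. In set B IFITM1 stood at 13.6, 14.8 and 13.3 CPM in control B and 1.962, 2.32 and 2.54 in clone 1.14. Every knockout sample lay below all controls of its set, and the lowest values were those of clone 1.14. The fall was -1.35 (log2 fold change, SE 0.17, edgeR adjusted p = 6.39e-05) in clone 3.3, -2.62 (log2 fold change, SE 0.12, edgeR adjusted p = 1.71e-05) in clone 1.14, -1.49 (log2 fold change, SE 0.17, edgeR adjusted p = 0.000226) in ΔSCC4 and -0.73 (log2 fold change, SE 0.17, edgeR adjusted p = 0.0261) in ΔWAPL/ΔSCC4. It was deeper in clone 1.14 than in clone 3.3, by 1.29 on the log2 scale (SE 0.17, edgeR adjusted p = 0.000686). Without SCC4 as well as WAPL the gene was higher than in clone 3.3 (log2 fold change 0.61, SE 0.18, edgeR adjusted p = 0.0414), the opposite of the effect of SCC4 loss in cells with WAPL, and the effects differed by 2.10 (edgeR adjusted p = 2.95e-05). The call in ΔWAPL/ΔSCC4 against control A was lost without control A replicate 2 or ΔWAPL/ΔSCC4 replicate 2 or 3 (adjusted p = 0.0849 to 0.111), and that against clone 3.3 without clone 3.3 replicate 1 or 2 or ΔWAPL/ΔSCC4 replicate 1 or 3 (adjusted p = 0.0586 to 0.306) or in DESeq2 (adjusted p = 0.0776).

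IFITM2, next to IFITM1 on chromosome 11, followed it in clone 1.14. IFITM2 stood at 1.37, 1.11 and 1.07 CPM in control A, 0.698, 0.9197 and 0.399 in clone 3.3, 0.7803, 0.916 and 1.52 in ΔSCC4 and 0.683, 0.615 and 0.679 in ΔWAPL/ΔSCC4. In set B IFITM2 stood at 1.57, 2.22 and 1.69 CPM in control B and 0.795, 0.653 and 0.845 in clone 1.14. Clone 1.14 lay below control B throughout (log2 fold change -1.25, SE 0.22, edgeR adjusted p = 0.00809), while the samples of clone 3.3 lay below control A without passing the test (-0.83, edgeR adjusted p = 0.184). IFITM genes resemble one another in sequence, and reads that matched more than 1 of them were not counted. Their values are uncertain to that extent, which was not measured. BST2, or tetherin, which holds budding virions at the cell surface, was among the most abundant members and was called in no comparison, with log2 fold changes between -0.20 and 0.19.

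In the ISG15 system, ISG15 itself, a ubiquitin-like protein that is attached to others, was lower in clone 1.14 and higher in ΔWAPL/ΔSCC4 than in clone 3.3. ISG15 stood at 5.86, 3.33 and 5.01 CPM in control A, 4.39, 3.68 and 6.11 in clone 3.3, 5.397, 2.34 and 4.22 in ΔSCC4 and 8.93, 7.01 and 6.96 in ΔWAPL/ΔSCC4. In set B ISG15 stood at 5.06, 5.78 and 5.12 CPM in control B and 3.98, 3.86 and 3.38 in clone 1.14. Clone 1.14 lay below control B and ΔWAPL/ΔSCC4 above clone 3.3 in every sample, while clone 3.3 and ΔSCC4 overlapped with control A. The values were -0.51 (log2 fold change, SE 0.12, edgeR adjusted p = 0.0211) in clone 1.14 and 0.69 (log2 fold change, SE 0.19, edgeR adjusted p = 0.0249) in ΔWAPL/ΔSCC4 against clone 3.3. The first was lost without control B replicate 1 or 2 or clone 1.14 replicate 1, 2 or 3 (adjusted p = 0.0518 to 0.0759) or in DESeq2 (adjusted p = 0.119), and the second without clone 3.3 replicate 2 or ΔWAPL/ΔSCC4 replicate 1 (adjusted p = 0.118 to 0.141). Both were lost in one fit over all 18 samples (edgeR adjusted p = 0.1955 and 0.0579). USP18, which removes ISG15, and the ligases HERC5 and HERC6 were called in no comparison with a control, though HERC6 was lower in ΔSCC4 with the replicate block (-0.49, edgeR adjusted p = 0.000822). HERC6 was higher in ΔWAPL/ΔSCC4 than in ΔSCC4 (log2 fold change 0.92, SE 0.14, edgeR adjusted p = 8.52e-05), from 15.2, 16.7 and 17.9 to 29.6, 33.5 and 31.3 CPM, and so was HERC5 (0.56, edgeR adjusted p = 0.0127).

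The OAS genes, whose enzymes make short adenylates when they meet double-stranded RNA, lie side by side over 106 kb of chromosome 12 and parted in clone 1.14. OAS2 stood at 2.35, 3.70 and 3.397 CPM in control A, 5.48, 4.39 and 4.05 in clone 3.3, 1.95, 1.83 and 2.07 in ΔSCC4 and 1.59, 1.72 and 1.697 in ΔWAPL/ΔSCC4. In set B OAS2 stood at 4.44, 5.58 and 4.78 CPM in control B and 0.424, 0.594 and 0.181 in clone 1.14. OAS2 (ENSG00000111335, chr12:113416200-113449528) was lower in clone 1.14 than in every other sample of the series, with 8, 10 and 3 reads. OAS1 stood at 0.586, 0.802 and 0.715 CPM in control A, 0.498, 0.637 and 0.665 in clone 3.3, 0.6502, 0.407 and 0.691 in ΔSCC4 and 0.967, 0.799 and 0.735 in ΔWAPL/ΔSCC4. In set B OAS1 stood at 1.03, 1.01 and 1.52 CPM in control B and 0.265, 0.297 and 0.241 in clone 1.14. OAS1 was likewise lowest in clone 1.14, with 5, 5 and 4 reads. OAS3 stood at 17.5, 15.3 and 17.3 CPM in control A, 19.7, 18.04 and 17.3 in clone 3.3, 17.1, 17.9 and 17.7 in ΔSCC4 and 19.1, 22.7 and 22.9 in ΔWAPL/ΔSCC4. In set B OAS3 stood at 16.9, 14.8 and 15.5 CPM in control B and 22.7, 21.3 and 21.5 in clone 1.14. OAS3, which lies between them, was above all controls in clone 1.14. Against control B, OAS2 fell (log2 fold change -3.60, SE 0.27, edgeR adjusted p = 0.000141), OAS1 fell (log2 fold change -2.14, SE 0.31, edgeR adjusted p = 0.00306) and OAS3 rose (log2 fold change 0.47, SE 0.0782, edgeR adjusted p = 0.00592). The ratio of summed reads was 0.0815 (95% counting interval 0.0495 to 0.128) for OAS2 and 0.222 (0.114 to 0.404) for OAS1.

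In clone 3.3 no OAS gene was called, though OAS2 passed in one fit over all 18 samples (edgeR adjusted p = 0.0498). The values there were 0.55 (edgeR adjusted p = 0.159) for OAS2, -0.27 (edgeR adjusted p = 0.794) for OAS1 and 0.12 (edgeR adjusted p = 0.792) for OAS3. For OAS2 the effects in the clones were apart by 4.16 (SE 0.37, edgeR adjusted p = 1.40e-05), and for OAS1 by 1.89 (SE 0.43, edgeR adjusted p = 0.0326). The difference for OAS1 was not called without control A replicate 1 or 3 or clone 3.3 replicate 2 or 3 or control B replicate 3 or clone 1.14 replicate 1, 2 or 3 (adjusted p = 0.0597 to 0.112) or in DESeq2 (adjusted p = 0.182). It was also not called with no filter (edgeR adjusted p = 0.0556) or with the replicate block (edgeR adjusted p = 0.105). OAS2 was also lower in ΔWAPL/ΔSCC4, against clone 3.3 (log2 fold change -1.48, SE 0.20, edgeR adjusted p = 6.63e-05) and against control A (log2 fold change -0.92, SE 0.21, edgeR adjusted p = 0.0222). The latter was lost without control A replicate 2 or ΔWAPL/ΔSCC4 replicate 1 or 3 (adjusted p = 0.0648 to 0.121) or in DESeq2 (adjusted p = 0.0744). In ΔSCC4 it passed with the replicate block (-0.67, edgeR adjusted p = 0.0206).

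SAMD9 and DDX60, a growth-restraining antiviral protein and a helicase-like one, rose in both ΔWAPL clones. SAMD9 stood at 0.586, 0.802 and 1.31 CPM in control A, 2.79, 3.47 and 3.26 in clone 3.3, 0.975, 1.43 and 1.04 in ΔSCC4 and 1.82, 1.05 and 1.75 in ΔWAPL/ΔSCC4. In set B SAMD9 stood at 0.4102, 0.0672 and 0.563 CPM in control B and 3.29, 2.26 and 1.93 in clone 1.14. Every clone sample lay above its controls. DDX60 stood at 2.48, 2.47 and 2.503 CPM in control A, 6.78, 7.36 and 5.58 in clone 3.3, 3.25, 4.38 and 4.49 in ΔSCC4 and 4.44, 4.55 and 4.07 in ΔWAPL/ΔSCC4. In set B DDX60 stood at 3.15, 1.55 and 5.01 CPM in control B and 8.54, 8.07 and 8.63 in clone 1.14. DDX60 in clone 1.14 lay above control B throughout, although the control B samples were spread from 1.55 to 5.01 CPM. The rise of SAMD9 was 1.77 (log2 fold change, SE 0.28, edgeR adjusted p = 0.000516) in clone 3.3 and 2.78 (log2 fold change, SE 0.45, edgeR adjusted p = 0.00508) in clone 1.14, where control B had 6, 1 and 10 reads and the ratio of summed reads was 7.02 (95% counting interval 4.22 to 12.4). That of DDX60 was 1.38 (log2 fold change, SE 0.19, edgeR adjusted p = 0.000171) in clone 3.3 and 1.34 (log2 fold change, SE 0.30, edgeR adjusted p = 0.0206) in clone 1.14. The difference of the effects between the clones did not pass for SAMD9 (log2 fold change -0.997, SE 0.58, edgeR adjusted p = 0.614) or DDX60 (log2 fold change 0.0525, SE 0.38, edgeR adjusted p = 0.9795). Against clone 3.3, ΔWAPL/ΔSCC4 had less SAMD9 (log2 fold change -1.02, SE 0.23, edgeR adjusted p = 0.00736) and less DDX60 (log2 fold change -0.59, SE 0.16, edgeR adjusted p = 0.0253), while DDX60 remained above control A (0.80, edgeR adjusted p = 0.00891). The calls of DDX60 were lost in clone 1.14 without control B replicate 1 or clone 1.14 replicate 1, 2 or 3 (adjusted p = 0.0713 to 0.0946) and in ΔWAPL/ΔSCC4 against clone 3.3 without clone 3.3 replicate 2 or ΔWAPL/ΔSCC4 replicate 1 or 3 (adjusted p = 0.0765 to 0.152), or in DESeq2 (adjusted p = 0.0743), and against control A in DESeq2 (adjusted p = 0.0553). Both ΔWAPL/ΔSCC4 calls were also lost in one fit over all 18 samples (edgeR adjusted p = 0.117 and 0.05425). In ΔSCC4 DDX60 was higher with the replicate block (0.68, edgeR adjusted p = 0.00914).

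Among the other antiviral effectors, TRIM22, a ubiquitin ligase, was called higher in clone 1.14. TRIM22 stood at 50.3, 64.4 and 74.4 CPM in control A, 88.9, 84.2 and 78.2 in clone 3.3, 76.7, 90.4 and 101 in ΔSCC4 and 64.5, 78.9 and 58.8 in ΔWAPL/ΔSCC4. In set B TRIM22 stood at 64.1, 59.5 and 68.6 CPM in control B and 96.1, 90.3 and 92.6 in clone 1.14. Every clone 1.14 sample exceeded control B (log2 fold change 0.53, SE 0.0660, edgeR adjusted p = 0.00152), and in ΔSCC4 it stood at 0.49 (edgeR adjusted p = 0.1102) and passed with the replicate block (0.50, edgeR adjusted p = 8.31e-05). MX1, a dynamin-like GTPase, had 1 to 22 reads per sample. MX1 stood at 0.391, 0.185 and 0.298 CPM in control A, 1.05, 0.566 and 0.332 in clone 3.3, 0.3901, 0.102 and 0.484 in ΔSCC4 and 0.9104, 0.8604 and 0.962 in ΔWAPL/ΔSCC4. In set B MX1 stood at 0.684, 0.672 and 0.394 CPM in control B and 0.954, 0.9498 and 1.33 in clone 1.14. ΔWAPL/ΔSCC4 lay above control A throughout (log2 fold change 1.63, SE 0.35, edgeR adjusted p = 0.0173), with 47 reads against 14 and a ratio of 3.15 (95% counting interval 1.71 to 6.20). That call was lost without control A replicate 2 or ΔWAPL/ΔSCC4 replicate 1 or 3 (adjusted p = 0.0562 to 0.0904) or in DESeq2 (adjusted p = 0.124). ISG20 and TRIM21 were called in no comparison. Of PARP9, PARP14 and DTX3L, which lie together on chromosome 3, DTX3L alone was called, higher in clone 1.14 (0.33, edgeR adjusted p = 0.0135), and not without clone 1.14 replicate 3 (adjusted p = 0.0624) or in one fit over all 18 samples (edgeR adjusted p = 0.437).

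PSMB8 (ENSG00000204264, chr6:32808494-32812456, minus strand), a catalytic subunit of the immunoproteasome, passed the test in all 4 comparisons with a control and in opposite directions. PSMB8 stood at 14.5, 15.3 and 11.6 CPM in control A, 29.8, 33.04 and 39.3 in clone 3.3, 4.94, 5.09 and 3.73 in ΔSCC4 and 51.9, 45.4 and 49.2 in ΔWAPL/ΔSCC4. In set B PSMB8 stood at 7.66, 10.2 and 6.75 CPM in control B and 2.44, 2.08 and 2.29 in clone 1.14. ΔWAPL/ΔSCC4 and clone 3.3 lay above every control A sample and ΔSCC4 below, while clone 1.14 lay below control B. The rise was 1.29 (log2 fold change, SE 0.17, edgeR adjusted p = 0.000137) in clone 3.3 and 1.82 (log2 fold change, SE 0.14, edgeR adjusted p = 1.67e-05) in ΔWAPL/ΔSCC4. The fall was -1.61 (log2 fold change, SE 0.19, edgeR adjusted p = 0.000328) in ΔSCC4 and -1.84 (log2 fold change, SE 0.19, edgeR adjusted p = 0.000674) in clone 1.14. PSMB8 was thus higher in one ΔWAPL clone and lower in the other, and the effects differed by 3.14 (SE 0.25, edgeR adjusted p = 4.43e-06). It was lower in ΔSCC4 than in control A, while ΔWAPL/ΔSCC4 exceeded clone 3.3 (log2 fold change 0.52, SE 0.13, edgeR adjusted p = 0.0157), a call lost without clone 3.3 replicate 2 or ΔWAPL/ΔSCC4 replicate 1 or 3 (adjusted p = 0.05595 to 0.0884). These effects of SCC4 loss differed by 2.13 (SE 0.23, edgeR adjusted p = 1.38e-05). Control B already stood below control A (-0.77, edgeR adjusted p = 0.139), which did not pass the threshold, but did with the replicate block (-0.77, adjusted p = 0.0294) and in one fit over all 18 samples (-0.76, adjusted p = 0.0128).

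PSMB9, another immunoproteasome subunit, and TAP1, a subunit of the peptide transporter, lie within 19.1 kb of PSMB8 and were called in no comparison, except that TAP1 was higher in ΔSCC4 with the replicate block (0.17, edgeR adjusted p = 0.0339). PSMB9 stood between 2.39 and 4.72 CPM in all 18 samples, and its log2 fold changes between 0.008398 and 0.37. In the annotation PSMB9 overlaps both PSMB8 and TAP1 on the opposite strand, and the libraries kept the strand. HLA-B, HLA-C and B2M, the chains of class I molecules, were lower in clone 1.14, with log2 fold changes of -0.25, -0.26 and -0.28 (edgeR adjusted p = 0.0265, 0.0404 and 0.0135). Those 3 calls were lost without some libraries, HLA-B without control B replicate 1 or clone 1.14 replicate 1, 2 or 3 (adjusted p = 0.0578 to 0.0961), HLA-C without control B replicate 2 or clone 1.14 replicate 1, 2 or 3 (adjusted p = 0.0502 to 0.147) and B2M without clone 1.14 replicate 1 or 3 (adjusted p = 0.0543 to 0.0602). The call of HLA-C was also lost in DESeq2 (adjusted p = 0.0694) and with no filter (edgeR adjusted p = 0.0535). Those of HLA-B and HLA-C were lost in one fit over all 18 samples (edgeR adjusted p = 0.165 and 0.233). In ΔSCC4 the same 3 genes passed with the replicate block, higher by 0.41, 0.41 and 0.20 on the log2 scale. HLA-B was higher in ΔWAPL/ΔSCC4 than in clone 3.3 (0.43, edgeR adjusted p = 0.02097), not without clone 3.3 replicate 2 or ΔWAPL/ΔSCC4 replicate 1 or 3 (adjusted p = 0.0911 to 0.1401). Reads shared between HLA genes were not counted, and HLA values are uncertain for that reason.

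Of 13 further genes of class I presentation, 12 were tested. NLRC5, the activator of class I genes, fell in both ΔWAPL clones, from 23.5, 18.99 and 20.3 CPM in control A to 9.92, 10.5 and 16.02 in clone 3.3 (-0.80, edgeR adjusted p = 0.0177) and from 24.3, 23.9 and 21.5 in control B to 12.4, 11.4 and 11.95 in clone 1.14 (-0.97, edgeR adjusted p = 0.000274). In ΔWAPL/ΔSCC4 it stood at 23.2, 18.4 and 21.3 CPM, above clone 3.3 (0.79, edgeR adjusted p = 0.00617). The fall in clone 3.3 was lost without clone 3.3 replicate 1 or 2 (adjusted p = 0.0795 to 0.111). ERAP2 was higher in clone 1.14 (0.75, edgeR adjusted p = 0.04504), not without control B replicate 1 or 2 or clone 1.14 replicate 1, 2 or 3 (adjusted p = 0.0522 to 0.165) or in DESeq2 (adjusted p = 0.0768), and TAPBP in ΔWAPL/ΔSCC4 against clone 3.3 (0.55, edgeR adjusted p = 0.01497), not without clone 3.3 replicate 2 or ΔWAPL/ΔSCC4 replicate 1 or 3 (adjusted p = 0.0508 to 0.0786). ERAP2 was also not called in one fit over all 18 samples (edgeR adjusted p = 0.0547). HLA-E, TAP2, PSMB10, PSME1 and PSME2 were called in no comparison with a control without the replicate block. With it, HLA-E (0.47, edgeR adjusted p = 0.000139) and TAPBP (0.47, edgeR adjusted p = 0.000184) were higher in ΔSCC4, and TAP2 (-0.22, edgeR adjusted p = 0.0443) and PSME1 (-0.15, edgeR adjusted p = 0.0368) lower. TAPBP also passed there in DESeq2 (adjusted p = 0.0471). In one fit over all 18 samples TAP2 was higher in ΔWAPL/ΔSCC4 than in control A (0.47, edgeR adjusted p = 0.009595). Between ΔWAPL/ΔSCC4 and ΔSCC4, TAP2 was higher (0.68, edgeR adjusted p = 0.00106), and HLA-E (-0.40, edgeR adjusted p = 0.0346) was lower, though not without ΔSCC4 replicate 1 or 2 or ΔWAPL/ΔSCC4 replicate 1, 2 or 3 (adjusted p = 0.0568 to 0.126). With the replicate block HLA-E was not called there (edgeR adjusted p = 0.0509).

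The ΔWAPL clones were compared with different controls and share no samples. Of the members, 7 passed in both, 6 in the same direction (IFIT1, SAMD9 and DDX60 higher, STAT2, IFITM1 and IDO1 lower) and PSMB8 in opposite ones. The 6 make up 75% of the 8 calls of clone 3.3 and 31.6% of the 19 of clone 1.14. Over all 12415 genes tested in both, 694 were called in the same direction, which is 71% of the 978 calls of clone 3.3 and 28.5% of the 2436 of clone 1.14, and 41 in opposite ones. Across the 36 members tested in both, the log2 fold changes had a Pearson correlation of 0.37 and a Spearman correlation of 0.50, as a description over genes that are not independent and share the libraries. The effect differed between the clones for 5 of 40 members, PSMB8, OAS2, OAS1 and IFITM1 with the higher value in clone 3.3 and IFI16 with the lower, where 1.67% of all genes were higher and 0.985% lower. The count was 3 without clone 3.3 replicate 2, clone 1.14 replicate 1 or clone 1.14 replicate 3. Of all genes, 1.8%, 1.69% and 1.84% were called in these fits, in place of 2.65%. The SCC4 effects with and without WAPL also share no samples. Across 37 members they had a Pearson correlation of 0.26 and a Spearman correlation of -0.00142, and among the members called the effects differed for CGAS (3.01), PSMB8 (2.13), IFITM1 (2.10) and STING1 (2.09), which were higher without WAPL, and for IDO1 (-3.50), DDX60 (-1.26), IFIT1 (-0.81) and TRIM22 (-0.80), which were lower.

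**Figure D4:**
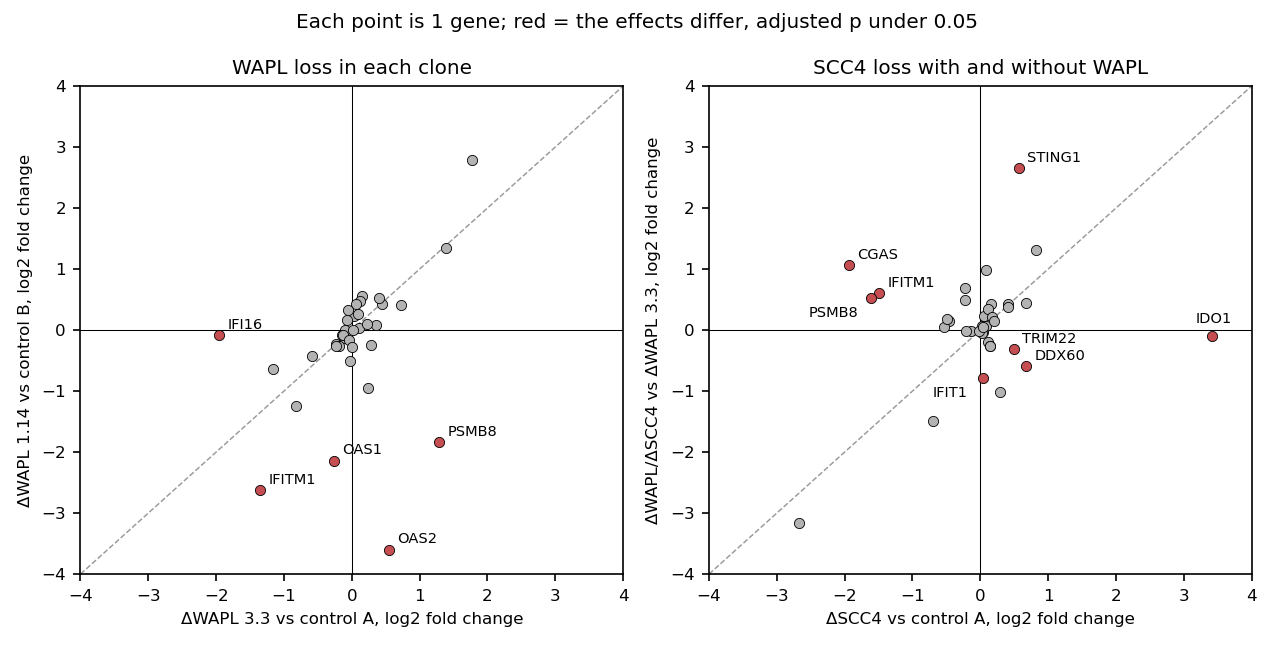
log2 fold change of each member in 2 comparisons that share no samples: both ΔWAPL clones against their own controls (left), and SCC4 loss in cells with WAPL against SCC4 loss in cells without it (right). The dashed line marks equal effects; red genes passed the test of the difference, and OAS2 and PSMB8 lie farthest from the line on the left, IDO1 and CGAS on the right.

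Members were counted by whether the 250 bases before their start held an ISRE core, did not, or had no sequence to search. In clone 1.14, 5 of 18 tested members with the core were higher and 3 lower, against 1 and 6 of 12 without it and 1 and 3 of 9 with no sequence, where 8.7% of all genes were higher and 11.4% lower. The median log2 fold changes were 0.33, -0.21 and -0.13. In clone 3.3 the counts were 3 higher and 1 lower of 17 with the core, 1 and 2 of 12 without and 0 and 1 of 8 with no sequence (4.17% and 3.9% of all genes), with medians of 0.0838, -0.0783 and -0.0422. In ΔSCC4 they were 0 and 1 of 16, 0 and 2 of 12 and 1 and 1 of 9 (5.45% and 4.03%). In ΔWAPL/ΔSCC4 against control A they were 3 and 1 of 19, 1 and 1 of 12 and 2 and 2 of 9 (4.65% and 3.3%), with a median of 0.20 in each. Against clone 3.3 they were 3 and 3 of 19, 3 and 1 of 12 and 3 and 1 of 9 (6.05% and 4.55%), with medians of 0.14, 0.27 and 0.0720. These counts had no test of their own. Of the promoters printed above, IFIT1, DDX60 and SAMD9 belong to genes that were higher in both clones, OAS3 to one that was higher in clone 1.14, and IFITM1, with an ISRE core as well, to one that was lower in all 4 knockouts.

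The controls gave the background of these comparisons. Between control B and control A, 0 of 37 members passed the adjusted threshold in edgeR, and 0 in DESeq2. At that threshold in edgeR, 0.56% of all genes were higher and 0.0799% lower in control B. The log2 fold changes of the members ran from -0.77 (PSMB8) to 0.75 (OAS1), with a median of 0.0119. OAS2 (0.63), IFITM2 (0.61) and IFI16 (0.58 on the log2 scale) were also higher in control B without being called.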

How the data were processed

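Poly(A) RNA of HAP1 cells was sequenced in 18 strand-specific libraries. The deposited values are raw read counts per Ensembl gene, which the authors made with TopHat2 2.0.9 on hg19 and HTSeq, per the labels' processing notes. Reads outside genes (4.041 to 5.222% per library), ambiguous (1.468 to 1.729%) or not uniquely aligned (14.3 to 16.06%) were left out. Of 20329 identifiers, 19637 had a symbol in GENCODE.

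Counts were filtered with filterByExpr, scaled by TMM and tested with edgeR 4.0.16 (quasi-likelihood, groups of the comparison only, Benjamini-Hochberg adjusted p under 0.05). SEs were derived from the fold change and F statistic and can be too small at low counts. DESeq2 1.42.0 was an alternative, as were its size factors in edgeR, other count filters, a fit over all 18 samples, a replicate block and leaving out each library. Tests were checked on simulated counts that had the same spread between replicates for every gene and changes only in genes with many reads. That check does not cover members with few reads. By the rule for named genes, values in every sample are given for IDO1 and, in each comparison, for up to 5 called members that rose and 5 that fell, by size of change; other genes came from lists by role, of which a few are not reported here. Members and lists were chosen with earlier results of these data known. ΔWAPL/ΔSCC4 against ΔSCC4, and the difference of the SCC4 effects, were added after seeing the data. The labels name sets for controls only; knockouts were placed by the run and lane shared in the file names. Same-numbered samples deviated together for ΔSCC4 and control A (correlations of 0.8208, 0.2061 and 0.7449), though the labels state no pairing. The main fits, that of ΔSCC4 included, used no block, and the replicate block was run only as an alternative. No 2 replicates agreed within sampling noise.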

Additional observations from a re-analysis of the deposited data

Results flagged for a closer look

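Loss of WAPL had effects that differed between its clones, by edgeR's test of the difference (clone 3.3 effect minus clone 1.14 effect, log2 scale), for PSMB8 (3.14), OAS2 (4.16), OAS1 (1.89), IFITM1 (1.29) and IFI16 (-1.86). The difference for OAS1 was not called in 11 of 17 alternatives, DESeq2 among them (adjusted p = 0.182), and that for IFI16 not in 5 of 18. Clone and set cannot be told apart here.

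The effect of SCC4 loss differed between cells without and with WAPL, by the same test, for CGAS (3.01), PSMB8 (2.13), IFITM1 (2.10), STING1 (2.09), IDO1 (-3.50), DDX60 (-1.26), IFIT1 (-0.81) and TRIM22 (-0.80). The difference for IFIT1 was not called without control A replicate 2 or clone 3.3 replicate 2 or ΔSCC4 replicate 2 or ΔWAPL/ΔSCC4 replicate 3 (adjusted p = 0.0517 to 0.0565), and that for TRIM22 not without control A replicate 2 or clone 3.3 replicate 1 or 2 or ΔSCC4 replicate 2 or 3 or ΔWAPL/ΔSCC4 replicate 1 or 3 (adjusted p = 0.0551 to 0.0764). Groups of 3 samples are too small for the test of single outlying samples.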

How the results depend on the processing

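No called value of a named gene changed sign under the alternatives run. Of 6078 values of named genes under the alternatives, 5758 stayed on the same side of the threshold (252 of them, never called, with the other sign), 217 lost their call and 103 gained one. These values include genes not called in the main fit. Calls of members kept under every alternative were 5 of 8 in clone 3.3, 9 of 19 in clone 1.14 and 5 of 5 in ΔSCC4. In ΔWAPL/ΔSCC4 they were 5 of 10 against control A, 7 of 14 against clone 3.3 and 7 of 12 against ΔSCC4. For the differences of effects they were 3 of 5 between the clones and 6 of 8 for SCC4 loss. In ΔSCC4, 10 members passed in one fit over all 18 samples and 15 with the replicate block, against 5, where 19.7% and 46% of all genes were called, against 9.49%. Between the controls PSMB8 alone passed in one fit over all samples and with the replicate block, 1 member in each. For the difference between the clones 3 passed with at least 10 counts in every sample, where 1.78% of all genes were called, against 2.65%. The median of the difference of the SCC4 effects was 0.17 in DESeq2 and 0.16 with no filter, against 0.0581. The replicate block changed no other count of members by over 1.5 times. Outside ΔSCC4 too, the labels state no pairing, and samples there share only a number.

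On leaving out 1 library, the members called ranged from 5 to 8 in clone 3.3, 9 to 21 in clone 1.14, 5 to 9 in ΔSCC4, 6 to 12 in ΔWAPL/ΔSCC4 against control A and 7 to 15 against clone 3.3, 0 to 0 between the controls, 3 to 5 for the difference between the clones, 8 to 14 in ΔWAPL/ΔSCC4 against ΔSCC4 and 6 to 9 for the difference of the SCC4 effects. The share of all genes called moved too, from 5.44 to 9.35% in clone 3.3, 11.1 to 37.9% in clone 1.14 and 5.25 to 18.3% in ΔSCC4. In ΔWAPL/ΔSCC4 it ran from 4.62 to 12.2% against control A, 6.79 to 14.2% against clone 3.3 and 16.3 to 39.5% against ΔSCC4. It ran from 0 to 0.85% between the controls, 1.69 to 2.88% for the difference between the clones and 8.6 to 13.5% for that of the SCC4 effects. Medians ranged from -0.0109 to 0.0930 in clone 1.14, -0.00536 to 0.11 between the controls, -0.0667 to 0.0728 for the difference between the clones and 0.0241 to 0.15 for that of the SCC4 effects. Members with few reads (MX1, STING1, OAS1 and IFIT3) are limited by depth.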
